A study of Mus musculus with 24 samples.

Results

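The 9 genes described here are aquaporins, the membrane channels for water and small uncharged solutes, in the mouse lacrimal gland (LG), the gland that secretes the aqueous layer of the tear film. Aqp1, Aqp2, Aqp3, Aqp4, Aqp5, Aqp7, Aqp8, Aqp9 and Aqp11 were taken by their symbols, and all 9 were found among the 63862 features listed in each table. The family holds 12 genes in these tables, and the other 3 (Mip, Aqp6 and Aqp12) never exceeded 0.432 FPKM (fragments per kilobase of transcript, scaled to the size of the library).

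All groups were of the C57BL/6 strain, with no allele that set one group apart. LG stem cells (LGSCs) were dissociated from the glands of mice aged 6 to 8 weeks. They grew as spheres in Matrigel under a defined medium with EGF, FGF10, Wnt3A and the ROCK inhibitor Y-27632. This medium was used for the spheres only, so it sets every LGSC group apart from every tissue group. Passage 2 spheres were taken on culture day 5 (2 libraries) and on days 7, 10 and 14 (3 libraries each). Whole LGs came from adult mice, whose age in weeks the labels do not give, and from embryos at E17.5 and E19.5, with 3 libraries each. A single library of passage 10 spheres at day 7 was read by value only, and 3 further samples (a day 5 replicate and passages 6 and 20) were not analysed here. The labels do not say whether replicates came from separate animals or cultures, so the p-values measure only the spread between these libraries, which may be technical.

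Aquaporins sit in membranes as tetramers in which each subunit is its own pore. A pair of short loops, each carrying an asparagine-proline-alanine (NPA) box, meet in the middle of the pore and set what passes. Classical aquaporins pass water, aquaglyceroporins also pass glycerol, and the unorthodox members have altered boxes and sit mostly in intracellular membranes. In exocrine glands, ion transport draws water across the epithelium, and Aqp5 in the apical membrane of acinar cells is the best known route for that water.

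The codons of the NPA boxes are shown because these boxes are the shared signature of the family whose levels are compared. The letters AACCCNGCN and AATCCNGCN were searched in frame on the coding strand of the longest coding sequence of each gene (GENCODE M21, GRCm38). Each window has 27 bases, 5′ to 3′, with the matching 9 bases in capitals, and the bases are counted from the A of the start codon:
Aqp1 bases 217 to 243: gctcacctcAACCCTGCGgtcacactg
Aqp1 bases 565 to 591: tgcggtatcAACCCTGCCcggtcattt
Aqp5 bases 196 to 222: ggccacatcAATCCGGCCattactctg
Aqp5 bases 544 to 570: tgttccatgAACCCAGCCcgatctttc
Aqp8 bases 265 to 291: ggacacttcAACCCTGCTgtgtcgctg
Aqp8 bases 619 to 645: gcctgcatgAACCCTGCTcgtgccttt
Aqp3 bases 238 to 264: gcccacttgAACCCCGCTgtgaccttc
Aqp3 bases 634 to 660: tatgccgtcAACCCTGCCcgtgacttt
Aqp11 bases 637 to 663: gcattgtttAACCCAGCGctggcactt

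These letters occurred 2 times in Aqp1, Aqp2, Aqp3, Aqp4, Aqp5, Aqp8 and Aqp9, once in Aqp11 and not at all in Aqp7. Of 21764 mouse coding sequences, 7.36% held at least 1 match and 0.703% at least 2. In the aquaglyceroporins Aqp3 and Aqp9 the second match was followed by cgtgac or cgagac, and in the water channels Aqp1 and Aqp5 by cggtca or cgatct. The study's designed forward primer for Aqp5, catgAACCCAGCCcgatctt (bases 549 to 568), lies on the second match, and its reverse primer, cttctgctcccatcccatcc, lies in the 3′ UTR. The pair spans 401 bases in 4 annotated Aqp5 transcripts.

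The tables held FPKM made by the authors, from which the whole reads behind each value could be recovered for 98.33 to 99.67% of the values above 0 in each library. Recovered depth was 5973032 to 9153077 reads per library. The adult libraries were dominated by a few transcripts, with 53.7, 52.0 and 25.5% of their reads in the 10 most abundant genes, against 4.8 to 8.1% in the others. Gapdh, which every cell uses, is listed at 0 in all 20 libraries. Of 5332 genes at 10 FPKM or more in the separately made passage 10 table, 2695 (50.5%) had a day 7 mean under 0.1 times that value, so a low or 0 value in the 20 libraries cannot be read as absence of the transcript. The acinar marker Car6, a secreted carbonic anhydrase, and Pip, a secretory protein, dominated the summed acinar markers of adult LG (6411 to 16442 FPKM). The same 9 acinar markers summed to at most 1.08 FPKM in embryonic LG and 4.3 FPKM in LGSCs. In LGSCs, the ductal markers summed to 459 to 2765 FPKM and the 6 basal epithelial markers to 12.4 to 737 FPKM, with Krt15 up to 719 FPKM.

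By the deposited FPKM, a different aquaporin led each kind of sample. As low values in these libraries cannot be read as absence, the shares and the orders below may not be those of the transcripts. Aqp3 made up 95.5 to 99.9% of the summed aquaporin FPKM in the 11 passage 2 LGSC libraries, and Aqp1 made up 95.7 to 97.4% in the 6 embryonic libraries. In adult LG, Aqp8 and Aqp1 shared the lead: Aqp8 took 81.9, 67.7 and 23.7% of the sum in replicates 1 to 3, and Aqp1 took 15.2, 27.4 and 62.8%. The sum itself was 386 to 568 FPKM in adult LG, 162 to 254 FPKM in embryonic LG and 80.6 to 3212 FPKM in LGSCs. These sums rest on the scaling of the FPKM values. In that scaling, 1 read was worth far more FPKM in adult replicates 1 and 2 than in any embryonic library. Whether adult and embryonic sums stay apart when scaled to the recovered reads was not tested.

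**Figure D1:**
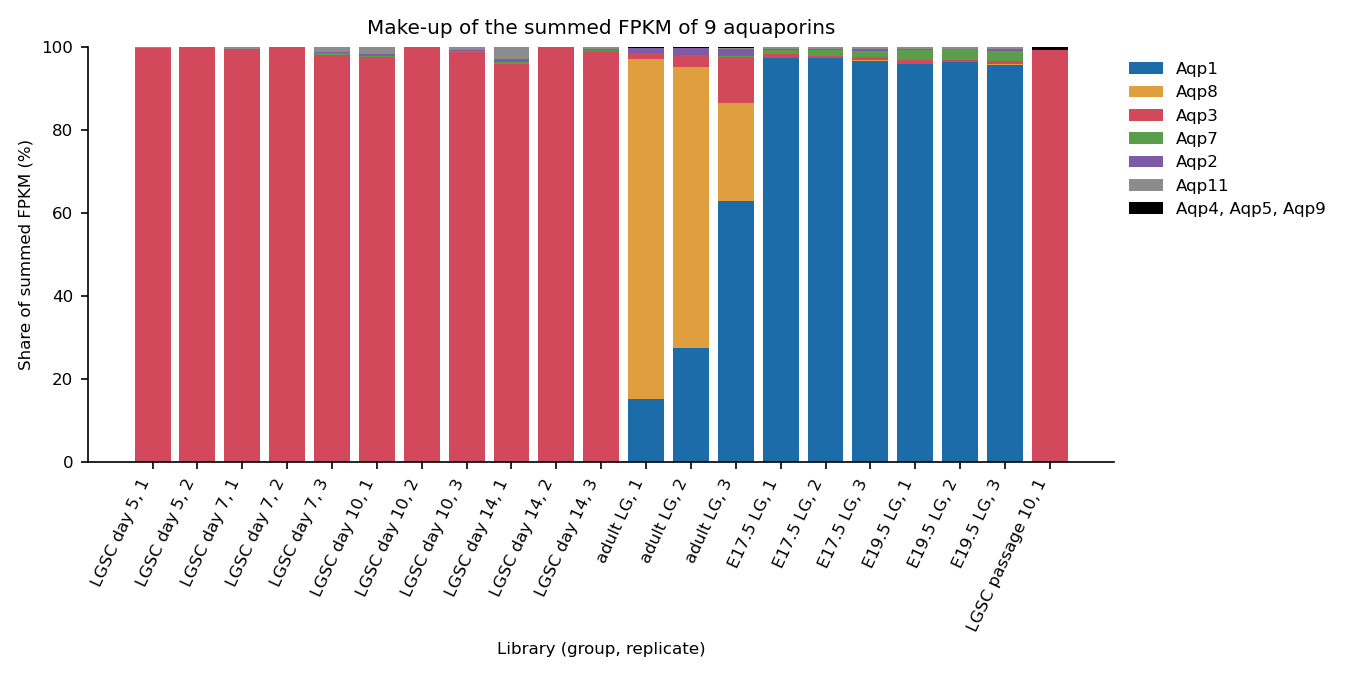
Share of the summed aquaporin FPKM (percent) held by each aquaporin, 1 bar for each library by group and replicate, the passage 10 library last. Aqp3 fills the LGSC bars (95.5 to 99.9%), Aqp1 the embryonic bars (95.7 to 97.4%), and Aqp8 and Aqp1 divide the adult bars.

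By level in FPKM, which is scaled to transcript length, the order in adult LG was Aqp8, Aqp1, Aqp3, Aqp2, Aqp11, Aqp5, Aqp7 and Aqp9. The ranges of Aqp8 and Aqp1 overlapped, whereas Aqp1, Aqp3, Aqp2 and Aqp11 followed each other without overlap, and the genes from Aqp11 to Aqp9 could not be separated beyond their spread. At E17.5 the order was Aqp1, Aqp7, Aqp3, Aqp11, Aqp2 and Aqp8, with no overlap between neighbours. The order at E19.5 was the same, but Aqp11 and Aqp2 overlapped. On every LGSC day Aqp3 stood first and Aqp11 next, far apart, and Aqp11 overlapped with the gene after it (Aqp7 on days 5 and 7, Aqp2 on days 10 and 14).

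**Figure D2:**
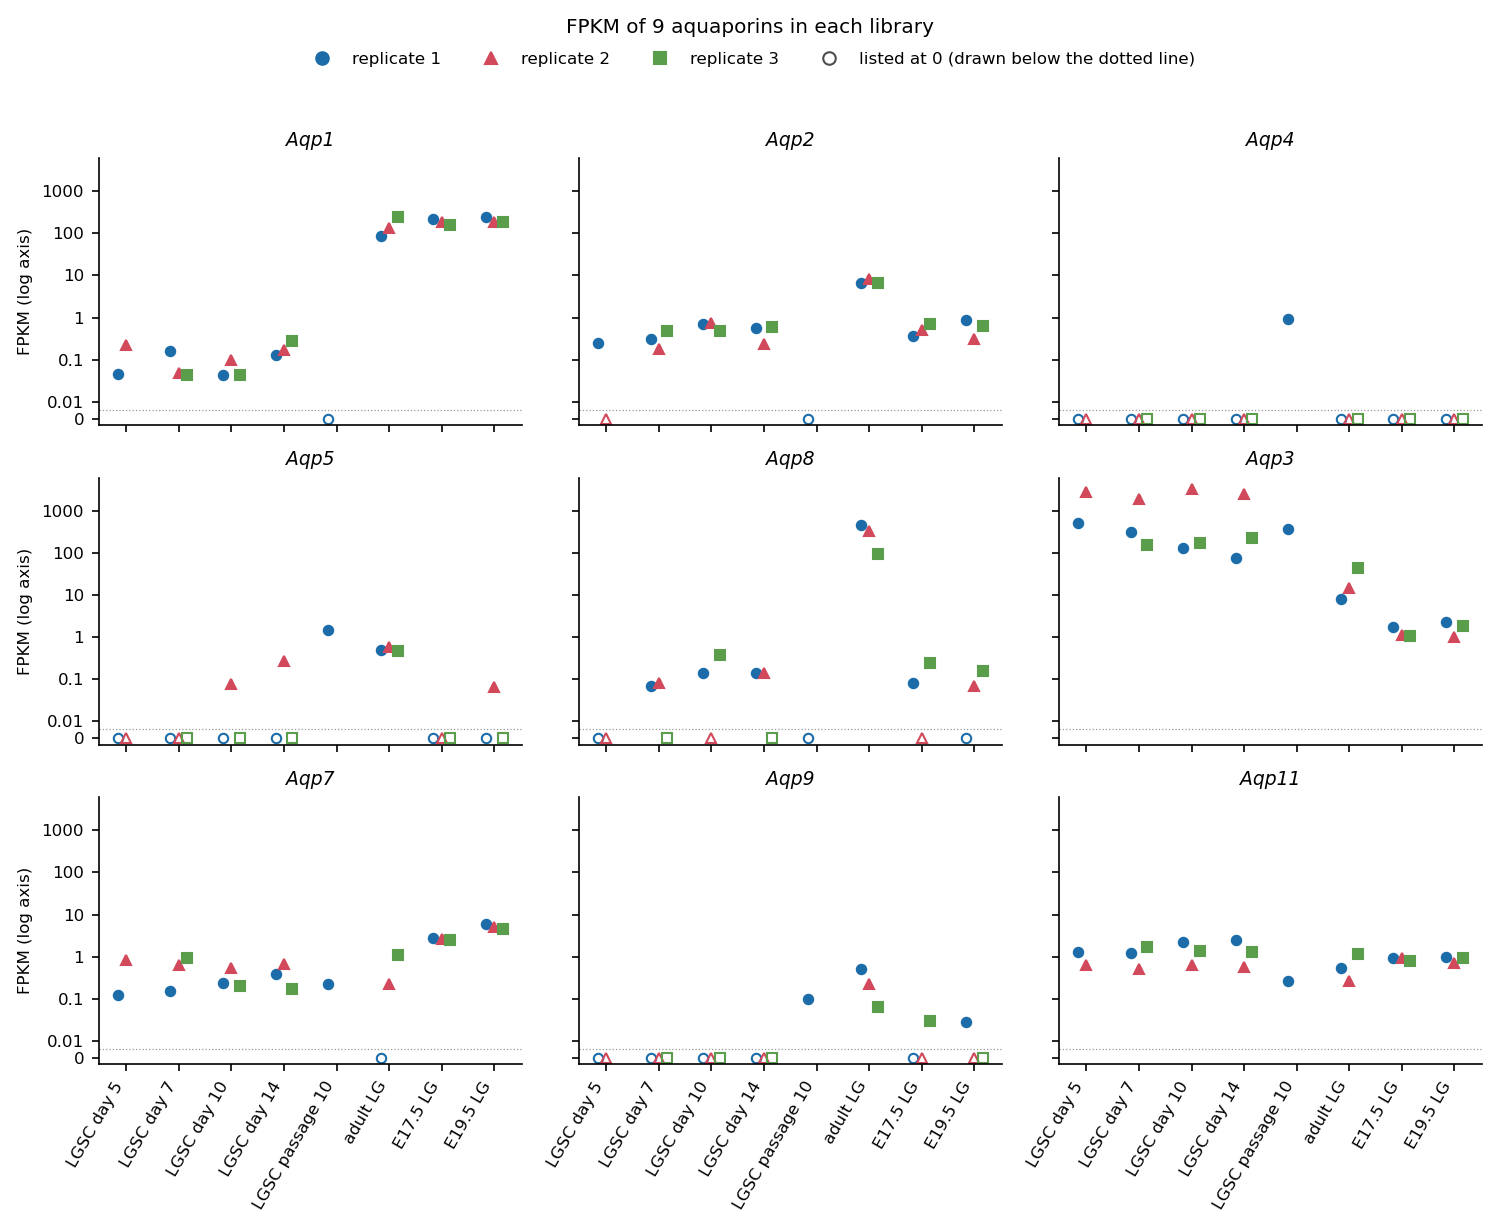
FPKM of each of the 9 aquaporins in each library (points, log axis with values of 0 drawn at the bottom), by group. Aqp3 is high in every LGSC library (76.9 to 3210.2), Aqp1 in every tissue library (86.6 to 244) and Aqp8 in the adult libraries alone (91.5 to 466).

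Comparisons were made with limma on log2(FPKM + 1), and a gene was called at an adjusted p under 0.05 (Benjamini-Hochberg over all genes tested). Genes with a mean of 0.5 FPKM or more over the libraries of a fit were tested, so some aquaporins dropped out of each comparison. A gene near 0 in every group of a fit but adult LG passed through adult LG alone, which fixed its direction. This holds for Aqp8 in every comparison with adult LG, and for Aqp1 and Aqp2 in those of LGSCs. Differences below are on that log2 scale and understate the change of genes near or below 1 FPKM. E17.5 and E19.5 LG were each set against the same adult libraries, as were day 7 and day 14 LGSCs.

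Between E17.5 and adult LG, 6 of the 9 aquaporins were tested and 4 were called, 1 higher (Aqp7) and 3 lower (Aqp2, Aqp3 and Aqp8) in the embryo. Across all 18578 genes tested, 54.0% were called, 29.1% higher and 24.9% lower. Groups did not overlap for the same 4 aquaporins, against 59.5% of all genes. Between E19.5 and adult LG the 4 called aquaporins and their directions were the same, beside 54.2% of all genes (30.3% higher and 23.9% lower) and 58.8% with groups apart. The median log2 difference of the 6 was −1.08 in the earlier stage and −1.06 in the later, beside 0.05 and 0.09 over all genes.

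Scaling to the recovered reads in place of FPKM raised the median of all genes, relative to adult LG, to 0.59 for E17.5 LG and 0.54 for E19.5 LG. The split of calls then moved from 5405 higher of 10039 to 8243 higher of 10322 at E17.5, and from 5637 of 10077 to 7817 of 9841 at E19.5. The aquaporins stayed at 1 higher and 3 lower in both. Relative to the shifted median, Aqp2, Aqp3 and Aqp8 stood at −2.29, −2.81 and −7.55 at E17.5, and Aqp7 at 0.95.

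Between E19.5 and E17.5 LG, 0 of the 6 aquaporins tested were called, with 1 at an unadjusted p under 0.05 (Aqp7), and 1.74% of all genes were called. limma-voom on the recovered reads also called 0 of them. The count of all genes called (323) rested on the fit, with 2144 when the 2 embryonic groups were fitted alone and 1736 without adult replicate 3. Groups were apart for Aqp7 alone, against 35.1% of all genes.

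Between day 7 LGSCs and adult LG, 5 aquaporins were tested and 4 were called, 1 higher (Aqp3) and 3 lower (Aqp1, Aqp2 and Aqp8) in LGSCs. Across all 17663 genes tested, 39.7% were called, 16.5% higher and 23.2% lower, and groups were apart for 51.9% of genes against 4 of the 5 aquaporins. At day 14 the calls were the same, beside 36.4% of all genes (15.2% higher and 21.2% lower) and 47.4% with groups apart. The medians of the 5 were −2.61 and −2.47, beside −0.03 and −0.02 over all genes. Scaling to the recovered reads raised the median of all genes to 0.54 and 0.60 and turned the split of calls from 2909 higher of 7013 to 6059 of 8183 at day 7, and from 2690 of 6437 to 6556 of 8487 at day 14. The aquaporin calls remained 1 higher and 3 lower. Bulk RNA does not show whether a lower level comes from fewer cells of a type or less RNA per cell, and these cannot be told apart here.

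**Figure D3:**
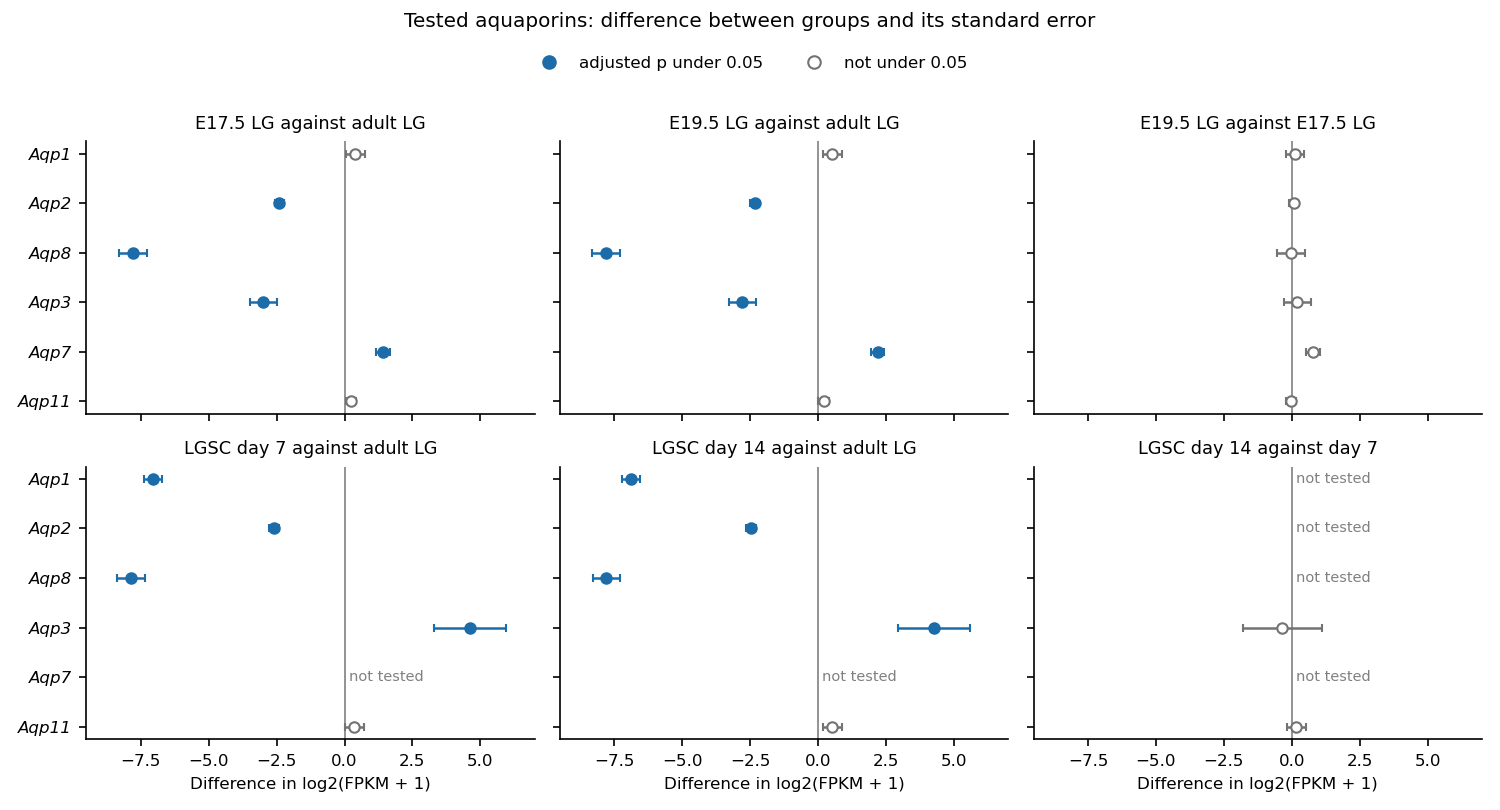
log2 difference in FPKM (pseudocount 1) with its standard error for the aquaporins tested in each comparison, filled where limma's adjusted p is under 0.05. Aqp8 lies near −7.8 in all 4 comparisons with adult LG, and Aqp3 changes side, from −2.99 and −2.79 in embryonic LG to 4.61 and 4.26 in LGSCs.

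Aqp1 (6:55336432-55348555, plus strand, GRCm38) is the water channel of red blood cells, capillary endothelium and the kidney's proximal tubule. Its level was 86.6, 134 and 243 FPKM in the 3 adult libraries, 223, 188 and 156 FPKM at E17.5, and 244, 189 and 183 FPKM at E19.5. The adult range spanned all 3 of the E17.5 values, and only 1 E19.5 library lay above it. The mean was 154 ± 80.1 FPKM (SD, n = 3) in adult LG, 189 ± 33.3 in E17.5 LG and 205 ± 33.6 in E19.5 LG.

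The difference for Aqp1 was 0.40 ± 0.34 (SE) at E17.5 (limma adjusted p = 0.347) and for E19.5 LG 0.52 ± 0.34 (adjusted p = 0.228). Without adult replicate 3, Aqp1 was called higher in both stages, by 0.79 (adjusted p = 0.0172) and 0.91 (adjusted p = 0.00932). On the recovered reads, limma-voom gave 1.28 (adjusted p = 0.0497) and 1.29 (adjusted p = 0.0486). The 12 endothelial markers summed to 344, 456 and 893 FPKM in the adult libraries, in the same order as Aqp1, and to 209 to 351 FPKM in embryonic LG. Of the 9 endothelial markers tested, the E17.5 comparison called 1 up and 4 down, and the E19.5 comparison 3 up and 3 down. These counts stand beside 54.0% and 54.2% of all genes called. The red blood cell markers summed to at most 1.94 FPKM in adult LG, 21.1 to 23 FPKM in E17.5 LG and 4.74 to 9.81 FPKM in E19.5 LG, and their part in the level of Aqp1 was not tested.

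In LGSCs, Aqp1 did not exceed 0.275 FPKM in any of the 11 passage 2 libraries, with 28 recovered reads in all. Every LGSC library was therefore far below every tissue library. The difference against adult LG was −7.04 ± 0.33 at day 7 (limma adjusted p = 2.36e-06) and −6.90 ± 0.33 at day 14 (adjusted p = 2.77e-06). Of 9 endothelial markers tested, 8 were also called lower on either day, beside 23.2% of all genes at day 7 and 21.2% at day 14. Apart from Plvap and Flt1, the tested markers averaged at most 0.0753 FPKM on these days. They passed the filter through adult LG alone, which fixed their direction, so this count is no separate result. The 12 endothelial markers summed to 2.59 to 55.7 FPKM in LGSCs. Kdr, Emcn, Esam and Cldn5 were listed at 0 in all day 7 libraries, but Kdr and Esam averaged only 0.192 and 0.31 FPKM in adult LG. Flt1 went the other way, with means of 15 FPKM at day 7 and 36.4 FPKM at day 14 against 7.48 FPKM in adult LG. The part of endothelial cells in the Aqp1 difference was not tested.

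Aqp8 (7:123462291-123468004, plus strand) passes water as well as ammonia and hydrogen peroxide, and is known from the acinar cells of the pancreas and from the liver and colon. The 3 adult libraries stood at 466, 329.8 and 91.5 FPKM, from 1103 to 1776 recovered reads each. In embryonic LG no library exceeded 0.237 FPKM, with 2 of 6 listed at 0, and in LGSCs none exceeded 0.366 FPKM, with 5 of 11 listed at 0. Every adult library lay far above every library of the other groups.

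Relative to adult LG, the difference for Aqp8 was −7.78 ± 0.51 in the earlier embryonic stage (limma adjusted p = 6.52e-06) and −7.82 ± 0.51 in the later one (adjusted p = 7.44e-06). The differences for LGSCs were −7.85 ± 0.51 at day 7 (adjusted p = 1.34e-05) and −7.79 ± 0.51 at day 14 (adjusted p = 1.54e-05). Across all alternative settings the differences ranged from −10.70 to −6.96, and all were called. Within adult LG, Aqp8 was lowest in replicate 3, where Aqp1 and the summed endothelial markers were highest. The summed acinar markers did not share the order of Aqp8, with 6710.4, 6411 and 16442 FPKM in replicates 1 to 3. Of the 9 acinar markers, 4 were tested against E17.5 LG and all 4 were lower in the embryo, beside 24.9% of all genes. These 4 averaged at most 0.278 FPKM in either embryonic stage. They passed the filter through adult LG alone, which fixed their direction, so this count is no separate result. The part of acinar cells in the Aqp8 difference was not tested.

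Aqp2 (15:99579055-99584547, plus strand) is the vasopressin-regulated water channel of the kidney collecting duct, and lies beside Aqp5 and Aqp6 on chromosome 15. It was low in adult LG, at 6.44, 8.02 and 6.76 FPKM, from 22 to 73 recovered reads. The values were 0.363, 0.513 and 0.706 FPKM at E17.5 and 0.888, 0.314 and 0.630 FPKM at E19.5. In LGSCs they ran from 0 to 0.734 FPKM, so no library outside adult LG reached 1 FPKM and the groups did not overlap.

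The mean of Aqp2 in adult LG was 7.07 ± 0.835 FPKM (SD, n = 3). The log2 difference was −2.40 ± 0.17 at E17.5 (limma adjusted p = 1.16e-05) and for E19.5 LG −2.34 ± 0.17 (adjusted p = 1.58e-05). Against adult LG, day 7 LGSCs differed by −2.61 ± 0.18 (adjusted p = 1.88e-05) and day 14 LGSCs by −2.47 ± 0.18 (adjusted p = 2.74e-05). All alternative settings kept these calls, with differences from −4.15 to −1.67.

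Aqp5 (15:99590782-99594829, plus strand), the apical water channel of lacrimal and salivary acinar cells, was barely counted. It stood at 0.497, 0.568 and 0.472 FPKM in adult LG. Outside adult LG it was above 0 in 3 of 17 libraries, at 0.0779 FPKM in day 10 replicate 2, 0.270 FPKM in day 14 replicate 2 and 0.0667 FPKM in E19.5 replicate 2. All 20 libraries together held 17 Aqp5 reads, of which 11 were adult, 5 from LGSCs and 1 embryonic.

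The adult libraries lay above all 17 others for Aqp5 in FPKM, but the gene failed the filter in every comparison. By recovered reads per library size the groups overlapped: day 14 replicate 2 held 4 of 7395340 reads, a larger share than in adult replicates 1 (2 of 5973032) and 2 (3 of 7285317), where 1 read is worth more FPKM. With no filter on low values, it was called lower than adult LG in all 4 comparisons, with differences of −0.60 at E17.5 (limma adjusted p = 0.000113), −0.57 at E19.5 (adjusted p = 0.000173), −0.60 at day 7 (adjusted p = 0.00433) and −0.48 at day 14 (adjusted p = 0.0131). The steps between its FPKM values implied a counted length of 1667 bases, against 2599 bases for the union of its annotated exons. Of the other members, only Aqp2 deviated, at 1416 against 1419 bases, and Aqp4 gave no steps.

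Aqp4 (18:15389496-15410982, minus strand) is the main water channel of astrocytes and of the basolateral membrane of several epithelia. It is listed at 0 in all 20 libraries, which gives neither an order nor a test. S100b, a glial marker, was nevertheless higher at E17.5 than in adult LG by 5.15 ± 0.21 (limma adjusted p = 6.37e-07). Its annotation overlaps another gene (AC133525.2), and the strand used in counting is not given in the sources used here.

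Aqp3 (4:41092722-41098183, minus strand) passes water and glycerol in the basolateral membrane of epithelia and in the epidermis. In tissue it was highest in adult LG, at 8.16, 14.5 and 42.5 FPKM, and stood at 1.76, 1.13 and 1.09 FPKM at E17.5 and 2.25, 1.03 and 1.81 FPKM at E19.5. All adult libraries lay above all embryonic ones. The difference was −2.99 ± 0.49 at E17.5 (limma adjusted p = 0.00107) and for E19.5 LG −2.79 ± 0.49 (adjusted p = 0.00164). With all 20 libraries in 1 fit, whose spread includes the LGSC libraries, the adjusted p rose to 0.0645 and 0.0828 at the same differences.

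In LGSCs, Aqp3 was the only aquaporin above 3 FPKM. It stood at 509 and 2729.8 FPKM on day 5 (replicates 1 and 2) and at 304, 1910.5 and 153 FPKM on day 7. On day 10 the values were 131, 3210.2 and 173 FPKM, and on day 14 they were 76.9, 2448 and 225 FPKM. All 11 libraries lay above all 9 tissue libraries, and replicate 2 was the highest on each day.

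Replicate 2 exceeded the mean of the other replicates of its day 5.36-fold on day 5, 8.35-fold on day 7, 21.2-fold on day 10 and 16.2-fold on day 14. Replicate 1 went from 509 FPKM on day 5 to 76.9 FPKM on day 14, while replicate 2 stayed between 1910.5 and 3210.2 FPKM. The replicate 2 libraries also stood apart in markers: ductal markers summed to 459 to 1134 FPKM there and 1267 to 2765 FPKM in replicates 1 and 3. Myoepithelial and smooth muscle markers summed to 1.87 to 5.43 FPKM against 9.86 to 183 FPKM. Summed basal epithelial markers were higher in replicate 2 on days 7, 10 and 14 (58.7, 431 and 737 FPKM, against 12.4 to 33.8 FPKM) but lower on day 5 (43.1 against 54 FPKM). Krt15, at up to 719 FPKM, made up most of the replicate 2 sums on days 10 and 14. No other basal marker exceeded 17.8 FPKM in any of the 20 libraries. The part of all these markers in the level of Aqp3 was not tested.

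**Figure D4:**
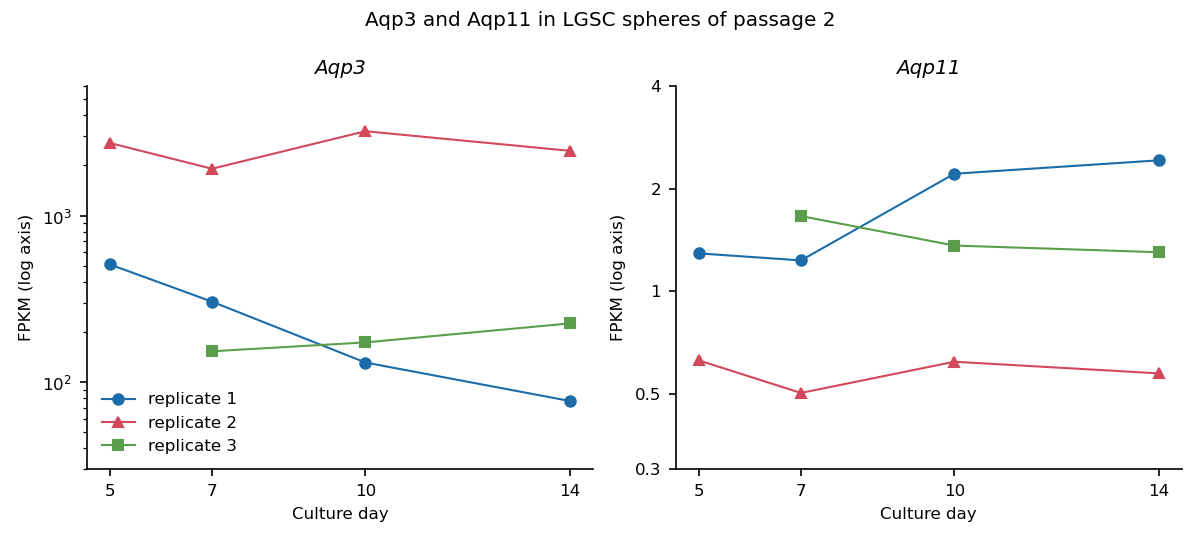
FPKM of Aqp3 and Aqp11 (log axis) against culture day in the passage 2 LGSC libraries, with each replicate number joined by a line. Replicate 2 is the highest for Aqp3 (1910.5 to 3210.2) and the lowest for Aqp11 (0.502 to 0.626) on every day.

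Against adult LG, Aqp3 was higher by 4.61 ± 1.33 at day 7 (limma adjusted p = 0.0243) and by 4.26 ± 1.33 at day 14 (adjusted p = 0.0355), with all 3 LGSC libraries above all 3 adult ones on each day. The day 7 call was lost without day 7 replicate 2 (3.56, adjusted p = 0.0798), adult replicate 1 (4.11, adjusted p = 0.0808) or adult replicate 2 (4.49, adjusted p = 0.0694). The day 14 call was lost without day 7 replicate 1 (4.26, adjusted p = 0.0521), day 14 replicate 2 (2.86, adjusted p = 0.0872) or 3 (4.57, adjusted p = 0.0663), or adult replicate 1 (3.76, adjusted p = 0.112) or 2 (4.14, adjusted p = 0.0959). With replicate 2 left out on both days, both calls stood, at 3.56 (adjusted p = 0.0143) and 2.86 (adjusted p = 0.0322).

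Over culture time, Aqp3 and Aqp11 were the 2 aquaporins tested, and neither was called. Between days 14 and 7, Aqp3 differed by −0.35 ± 1.45 (limma adjusted p = 0.947) and Aqp11 by 0.16 ± 0.35 (adjusted p = 0.901), and 0% of the 15744 genes tested were called (1557 genes, 9.89%, at an unadjusted p under 0.05). For neither aquaporin were the groups apart, against 17.4% of all genes. Over days 5 to 14, the slope was −0.14 ± 0.16 per day for Aqp3 (adjusted p = 0.676) and 0.03 ± 0.04 per day for Aqp11 (adjusted p = 0.713), beside 2.14% of all genes called (334 of 15584). With the replicate number as a block, the slopes were −0.10 (adjusted p = 0.321) and 0.02 (adjusted p = 0.511), and 783 genes were called. With replicate 2 left out on every day, the Aqp3 slope was −0.17 (unadjusted p = 0.0355, adjusted p = 0.259).

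Aqp7 (4:41033074-41048139, minus strand), the glycerol channel of adipocytes, is the neighbour of Aqp3 on chromosome 4 but did not share its pattern. It stood at 0, 0.223 and 1.07 FPKM in adult LG, at 2.73, 2.68 and 2.43 FPKM at E17.5 and at 6.11, 5.03 and 4.6 FPKM at E19.5. The 3 groups did not overlap in any pair. The LGSC libraries ran from 0.125 to 0.908 FPKM, within the adult range.

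Aqp7 was higher than in adult LG by 1.41 ± 0.25 at E17.5 (limma adjusted p = 0.00163), and in E19.5 LG by 2.19 ± 0.25 (adjusted p = 0.000160). Between the embryonic stages the difference was 0.78 ± 0.25 (adjusted p = 0.180), which was called only in the fit of those 2 groups alone (adjusted p = 0.0127) and without adult replicate 3 (adjusted p = 0.0156). Adipocyte markers summed to 9.8 to 44.9 FPKM in adult LG, 65.6 to 66 FPKM at E17.5 and 112 to 143 FPKM at E19.5, with the groups in the same order as for Aqp7. Fabp4, the fatty acid binding protein of adipocytes, made up most of these sums, with means of 20.6, 63.6 and 118 FPKM. Of the 4 adipocyte markers tested, Fabp4 alone was called higher at E17.5, and Fabp4 and the adipocyte hormone gene Adipoq (1.23 ± 0.31, limma adjusted p = 0.00921) at E19.5. Across all genes, 29.1% and 30.3% were called higher at these stages. Cfd (−0.00 and 0.88) and Plin4 (−0.84 and −0.80) were not called at either stage. Plin1 and Lep were listed at 0 in all adult libraries, but neither exceeded 0.59 FPKM in any of the 20 libraries. Lep was also listed at 0 in all E17.5 libraries. The part of adipocytes in the level of Aqp7 was not tested. In LGSCs Aqp7 failed the filter. With no filter its differences from adult LG were 0.17 (adjusted p = 0.746) and 0.04 (adjusted p = 0.982).

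Aqp9 (9:71110659-71168682, minus strand) passes glycerol, urea and other neutral solutes in hepatocytes and leukocytes. It stood at 0.50, 0.228 and 0.0633 FPKM in adult LG, at up to 0.0302 FPKM in embryonic LG, and was listed at 0 in all 11 LGSC libraries. The adult libraries lay above all others, but the gene failed the filter, and with no filter it was not called (adjusted p = 0.0618 to 0.0723 over the 4 comparisons with adult LG). Leukocyte markers summed to 109 to 210.3 FPKM in adult LG, 78 to 126 FPKM in embryonic LG and at most 2.44 FPKM in LGSCs, and their part was not tested.

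Aqp11 (7:97724006-97738289, minus strand) is an unorthodox aquaporin of the endoplasmic reticulum, whose loss in mice gives cystic kidneys. Its levels were low in all groups: 0.528, 0.268 and 1.17 FPKM in adult LG, 0.955, 0.947 and 0.809 FPKM at E17.5, and 0.984, 0.697 and 0.920 FPKM at E19.5. The LGSC libraries ran from 0.502 to 2.42 FPKM. All groups overlapped with adult LG. In LGSCs this overlap came from replicate 2 (0.502 to 0.626 FPKM), as replicates 1 and 3 (1.23 to 2.42 FPKM) lay above all adult libraries.

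No comparison called Aqp11: the differences from adult LG were 0.24 ± 0.20 at E17.5 (limma adjusted p = 0.339), 0.21 ± 0.20 in E19.5 LG (adjusted p = 0.406), 0.36 ± 0.35 at day 7 (adjusted p = 0.438) and 0.52 ± 0.35 at day 14 (adjusted p = 0.272). Without adult replicate 3 it was called higher in both embryonic stages (0.45, adjusted p = 0.0223, and 0.42, adjusted p = 0.0295). With limma-voom and the replicate number as a block it was called higher at day 7 (1.74, adjusted p = 0.0363) and day 14 (2.02, adjusted p = 0.0203). Scaled to the recovered reads and read against the median of all genes, its difference changed sign at E17.5 (−0.13) and E19.5 (−0.16). Within LGSCs, replicate 2 was the lowest library on each day, 2.05-fold below the other replicate on day 5 and 2.87- to 3.25-fold below their mean later, opposite to Aqp3.

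Genes of fluid secretion, the ion transporters and receptors that create the gradient for water, were taken as a list of 17, of which 13 were tested in tissue. Relative to adult LG, E17.5 LG had 1 of them higher and 6 lower, and E19.5 LG had 1 higher and 7 lower, beside the 54.0% and 54.2% of all genes called. Slc12a2, the basolateral sodium-potassium-chloride cotransporter, was lower, with a difference of −1.76 ± 0.31 in E17.5 LG and −1.49 ± 0.31 in E19.5 LG. Chrm3, the muscarinic receptor that drives secretion, was lower too (−2.17 ± 0.23 and −0.93 ± 0.23), and rose from E17.5 to E19.5 by 1.24 ± 0.23 (limma adjusted p = 0.0393). The calcium sensor Stim1 was lower in both (−1.11 ± 0.32 and −1.08 ± 0.32). Atp1b3, a subunit of the sodium pump, was not called (−0.47 and 0.14). The list median was −0.51 and −0.44, beside 0.05 and 0.09 over all genes.

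In LGSCs, 6 of the 13 tested fluid secretion genes were lower than in adult LG at day 7 and none higher, and 5 were lower and 1 higher at day 14, beside 39.7% and 36.4% of all genes called. The medians of the list were −0.62 and −0.70, beside −0.03 and −0.02 over all genes. Chrm3 (−2.95 ± 0.50) and Slc12a2 (−1.63 ± 0.45) were lower at day 7, while Stim1 (0.08) and Atp1b3 (0.37) were not called. None of 12 tested was called between days 14 and 7 or over the slope, beside 0% and 2.14% of all genes.

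Genes of glycerol and triglyceride handling were a list of 11, of which 8 were tested. Against adult LG, E17.5 LG had 1 higher and 5 lower, E19.5 LG had 1 higher and 4 lower, day 7 LGSCs had 1 higher and 4 lower, and at day 14, 4 were lower and none higher. The shares of all genes called were 54.0, 54.2, 39.7 and 36.4% in the same order. The list medians were −0.86, −0.51, −0.91 and −0.72, beside 0.05, 0.09, −0.03 and −0.02 over all genes. Gpd1, the cytosolic glycerol-3-phosphate dehydrogenase, was lower in both embryonic stages (−4.42 ± 0.25 and −3.85 ± 0.25). Mgll, which frees glycerol from monoglycerides, was lower in both (−2.96 ± 0.16 and −1.95 ± 0.16), and rose between the embryonic stages by 1.01 ± 0.16 (limma adjusted p = 0.0274), where it was the only gene of the list called. Gpd1l, a relative of Gpd1, was also lower (−1.26 ± 0.13 and −0.78 ± 0.13). Agpat2, an acyltransferase, was lower at E17.5 (−0.45 ± 0.12) and not called at E19.5 (−0.24).

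The genes whose log2(FPKM + 1) was most like each aquaporin over the 20 libraries were ranked by Pearson's r among 10659 candidates. These libraries fall into 7 groups whose levels differ widely, so r follows group differences, and it is given as a description. Aqp1 was most like Tyrobp (r = 0.998), Clec14a (0.997) and Cdh5 (0.997), of which Cdh5 and Clec14a are known from endothelium and Tyrobp from myeloid cells. Aqp8 was most like Gm1553, Lipo1 and Gal3st2c (each 0.999), all listed near 0 outside adult LG. Aqp2 was most like Ighv6-3 (0.976), Lrg1 (0.976) and Ces1d (0.974), and Aqp7 most like Sbspon (0.965), Gm12688 (0.961) and Kirrel3 (0.958).

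Aqp3 was most like Cwh43 (r = 0.978), Wnt4 (0.974) and Gsto1 (0.972), and Aqp11 most like Ccbe1 (0.943), Bin1 (0.899) and Zscan2 (0.890). Over the 11 passage 2 LGSC libraries alone, a choice made after the values were seen, Aqp3 was most like Ly6d (0.983), Smim13 (0.983) and Dlx5 (0.981) among 9150 candidates. Ly6d, a surface protein of stratified epithelium, stood at 1072 to 1974 FPKM in replicate 2 and 9.05 to 122 FPKM in replicates 1 and 3. Aqp11 was most like Padi2 (0.978), Ccbe1 (0.973) and Aifm3 (0.964), and Padi2 stood at 0.181 to 0.255 FPKM in replicate 2 and 2.13 to 10.9 FPKM in the others. These 11 libraries share 3 replicate numbers, and the high r values rest on the gap between replicate 2 and the others.

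In the single passage 10 library, taken at day 7 and tabulated separately, Aqp3 again led with 374 FPKM, or 99.2% of the summed aquaporins, within the day 7 range of passage 2. Aqp7 stood at 0.223 FPKM, also within that range, and Aqp11 at 0.259 FPKM, below it. Aqp1, Aqp2 and Aqp8 were listed at 0. There is no replicate and the tables were made separately, so no difference between passages was tested.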

How the data were processed

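The libraries were poly(A) mRNA prepared with the NEBNext Ultra kit, and whether strand was used in counting is not given in the sources used here. Per the labels, the submitters' processing notes name CASAVA 1.8, HISAT2 2.0.5, featureCounts 1.5.0-p3 and the build NCBIM37. The deposited FPKM values were made by the authors, 1 table for each library. Of 30682 genes whose length could be solved from the FPKM steps, 28534 (93%) had the exon-union length of GENCODE M21 (GRCm38). Coordinates are from that annotation.

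The 9 aquaporins and all gene lists were chosen with earlier results of these data known. Samples were grouped by the labels. As the tables hold FPKM, limma 3.58.1 (R 4.3.3, with an intensity trend in the variance) was run on log2(FPKM + 1), and genes averaging below 0.5 FPKM over a fit's libraries were dropped. The tissue groups shared 1 fit, day 7 and day 14 were compared within LGSCs, the slope used days 5 to 14, and day 7, day 14 and adult LG shared 1 fit. Whole reads were recovered with Python 3.11.15, numpy 2.4.6 and pandas 2.3.3 from the steps between low FPKM values of a gene (tolerance 0.05 reads), for 5973032 to 9153077 reads per library. Fits and recovery were tested on simulated data. All 9 aquaporins are named. Of each other list up to 4 genes are named, those with the highest mean in the comparison, and of genes alike each aquaporin the 3 with the highest r. Genes outside this rule (S100b, Car6, Pip, Krt5, Krt14, Kdr, Emcn, Esam, Cldn5, Plin1, Lep, Gapdh and Adipoq) are named as markers, some after their values were seen.

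Replicate numbers come from the sample titles. In LGSCs, libraries with the same number deviated together from their day's mean in every pair (r = 0.26 to 0.72 over 15 pairs, mean 0.46). An outlying replicate 2 would by itself move replicates 1 and 3 together around that mean. These r values therefore do not show that numbers 1 and 3 pair. In tissue, libraries with the same number did not deviate together (r = −0.08 to 0.07 over 9 pairs). Alternatives were other pseudocounts, filters, scalings, sets of libraries, the replicate block, limma-voom on recovered reads, and leaving out each library. The 3 samples with no table were not analysed here. All Aqp5 values together rest on 17 reads. Figures were drawn with matplotlib 3.10.9.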

Additional observations from a re-analysis of the deposited data

Results flagged for a closer look

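In the single passage 10 LGSC library, which enters no comparison, 3 aquaporins that are listed at 0 in all 3 passage 2 libraries of the same culture day were above 0. Aqp5 stood at 1.46 FPKM, above all 20 other libraries, whose highest was 0.568 FPKM in adult LG. Aqp4 stood at 0.935 FPKM, and is listed at 0 in the other 20. Aqp9 stood at 0.101 FPKM, above all LGSC and embryonic libraries but below the adult highest of 0.50 FPKM. There is 1 library and no control for its table, and the difference was not tested. Ltf, an acinar marker, stood at 407 FPKM there, Krt5 at 4931 FPKM and Krt14 at 7065 FPKM, so some genes outside the family also stood far above their level in the 20 libraries. The other acinar markers did not follow Ltf as a set. Of the 9, 3 stood at 1 FPKM or more in that library and 4 were listed at 0, among them Car6 (mean of 9016 FPKM in adult LG). Pip stood at 1.27 FPKM, against a mean of 829 FPKM in adult LG.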

How the results depend on the processing

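Of 614 recomputed aquaporin differences, 581 kept their direction and their side of the threshold, 10 gained a call, 12 lost one and 11 changed sign. Of 137 recomputed counts of aquaporins called, 135 stayed within 1.5 times. The others were the E19.5 and E17.5 comparison, where 1 aquaporin (Aqp7) was called in place of 0 with only the 2 groups compared and without adult LG replicate 3. Leaving out 1 library at a time moved that count between 0 and 1. The sign changes all came from leaving out 1 library, in differences that were not called. Between E19.5 and E17.5 LG, Aqp1 ranged from −0.01 to 0.24, Aqp2 from −0.06 to 0.21, Aqp8 from −0.11 to 0.05 and Aqp11 from −0.08 to 0.04. Between day 14 and day 7, Aqp3 ranged from −1.76 to 0.73 and Aqp11 from −0.12 to 0.44. For Aqp3 at day 14 against adult LG, the call was also lost with no filter (adjusted p = 0.0661) and with limma-voom (5.33, adjusted p = 0.0558). The cause of these changes was not tested.

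With the replicate number as a block in limma, 4 aquaporins were called in each of the 4 comparisons with adult LG and 0 in the other 3, and no aquaporin call changed. Genes called over the slope rose from 334 to 783, and between day 14 and day 7 limma-voom with the block called 113 genes. In tissue, where the numbers are not paired, genes called between E19.5 and E17.5 fell from 323 to 100. Over days 7, 10 and 14 alone, 163 genes were called with the block. limma-voom with the block called 5 aquaporins at day 7 and at day 14 against adult LG, Aqp11 being the added one. The values of Aqp5 rest on 17 reads in 20 libraries. Leaving replicate 2 out on every LGSC day, and the blocked fits of log2 day (793 genes) and of days 7, 10 and 14, were added after the data were seen. The count of all genes called between E19.5 and E17.5 ran from 13 (limma-voom with the block) to 2144 (only those 2 groups), with 56 by limma-voom without the block. It ran from 50 to 1736 when 1 library was left out. Over the slope it ran from 0 (days 7, 10 and 14 only) to 1164 (limma-voom with the block), and was 82 with no filter and 11 without day 5 replicate 1. With all 20 libraries in 1 fit, 50 genes were called between days 14 and 7. A filter at a mean of 2 FPKM, which tests fewer genes, called 6263 and 6346 genes at E17.5 and E19.5 against adult LG, and 4612 and 4242 at day 7 and day 14.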
